A study of Homo sapiens with 9 samples.

Results

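Serine, glycine and folate metabolism was followed through 10 genes in OCI-Ly1, an established human cell line of diffuse large B-cell lymphoma. The genes were chosen by name from the 25370 gene symbols of the deposited count table: PHGDH, PSAT1, PSPH, SHMT1, SHMT2, MTHFD1, MTHFD1L, MTHFD2, ALDH1L2 and SLC6A9. The rule holds no measured value, but earlier results of these data were known when the genes were chosen. Counts of called members are therefore not those of a list chosen blind. Cells had been kept for 48 h in IMDM with serum and DMSO as vehicle, or with JIB-04 at 150 or 500 nM. JIB-04 inhibits histone demethylases of the Jumonji family, among them KDM4A and KDM4C. Each condition had 3 libraries of ribosomal RNA-depleted total RNA, 9 in all, from 1 unmodified line. Whether a condition's libraries stem from different cultures is not stated, so the spread behind every p-value is that between these libraries and may be technical.

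PHGDH, PSAT1 and PSPH build serine from a glycolytic intermediate in the cytosol. In mitochondria SHMT2 splits serine into glycine and a carbon unit carried on folate, MTHFD2 oxidises that unit, and MTHFD1L releases it as formate, which leaves for the cytosol. There MTHFD1 puts formate back on folate for purine and thymidylate synthesis, while SHMT1 is the cytosolic counterpart of SHMT2. ALDH1L2, also mitochondrial, oxidises the folate-bound unit to CO2 and yields NADPH, and SLC6A9 is a glycine transporter of the plasma membrane. Dividing lymphocytes draw on this pathway for nucleotides, and several of its genes are known targets of the amino acid stress factor ATF4.

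Depth was 28476845 to 57198613 counts per library, and libraries of a condition correlated at r = 0.987 to 0.993 across genes. Of the symbols, 15089 passed a filter on low counts and were tested, and all 10 members were among them. The 6 B cell markers, such as MS4A1 and PAX5, were all tested and summed to 1474 to 1534 CPM in DMSO, 1490.4 to 1532 CPM at 150 nM and 1243 to 1299.7 CPM at 500 nM (CPM is the library-size-scaled count after TMM normalization). The 4 T cell markers summed to 7.05 to 7.37, 4.76 to 5.88 and 3.23 to 3.26 CPM in the same order of doses, the 4 myeloid markers to 2.36 to 2.86, 1.12 to 1.96 and 1.16 to 1.89 CPM, and the 4 epithelial and fibroblast markers to 4.94 to 5.68, 4.78 to 6.12 and 2.88 to 4.31 CPM. FCGR3A and COL1A1 had no count in DMSO or at 150 nM, and no marker had none in all 9 libraries. The part of these differences in the members' values was not tested. In bulk RNA, fewer cells of a kind and less RNA per cell cannot be told apart.

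At 500 nM the enzymes of serine synthesis, the 4 mitochondrial enzymes and the glycine transporter were all higher than in DMSO, while the 2 cytosolic folate enzymes were not. In edgeR's quasi-likelihood test with Benjamini-Hochberg adjustment over all tested genes, 8 members were higher and 1, MTHFD1, was lower at an adjusted p under 0.05. The same rule called 26.3% of all tested genes higher and 25.6% lower. By 2-fold or more, 6 members were higher, against 7.33% of tested genes. All 500 nM libraries lay above all DMSO libraries in 8 members and below them in 2, as in 30.2% and 29.0% of tested genes. The median log2 fold change was 1.26 over the members and 0.01 over all tested genes.

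At 150 nM against DMSO, 5 members were higher and 0 lower: PHGDH, PSAT1, PSPH, MTHFD2 and SLC6A9. Only 0.954% of tested genes were called higher at this dose and 0.318% lower. The members' median log2 fold change was 0.41, against 0.00 over all tested genes. All 3 serine synthesis enzymes were among the called members, and 1 of the 4 mitochondrial enzymes. ALDH1L2, with few counts and not called, had a log2 fold change of 0.67 ± 0.25 (SE), beside 0.45 for PHGDH and 0.47 for PSPH. Serine synthesis and mitochondrial enzymes were not compared with each other by a test. In 7 members, MTHFD1L and ALDH1L2 in addition to those called, every library at 150 nM lay above every DMSO library, as in 6.41% of tested genes, and in 0 members did every library lie below (7.32% of tested genes). SLC6A9 was the 1 member higher by 2-fold or more, against 0.245% of tested genes. At 500 nM against 150 nM, 8 members were again higher and 1 lower, against 23.7% and 22.8% of tested genes (46.5% in either direction), and 4 were higher by 2-fold or more, against 5.82%. The 500 nM libraries lay above the 150 nM libraries in 8 members and below in 1, as in 29.0% and 26.0% of tested genes. The median was 0.85 over the members and 0.01 over all. Both doses were set against the same DMSO libraries.

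**Figure D1:**
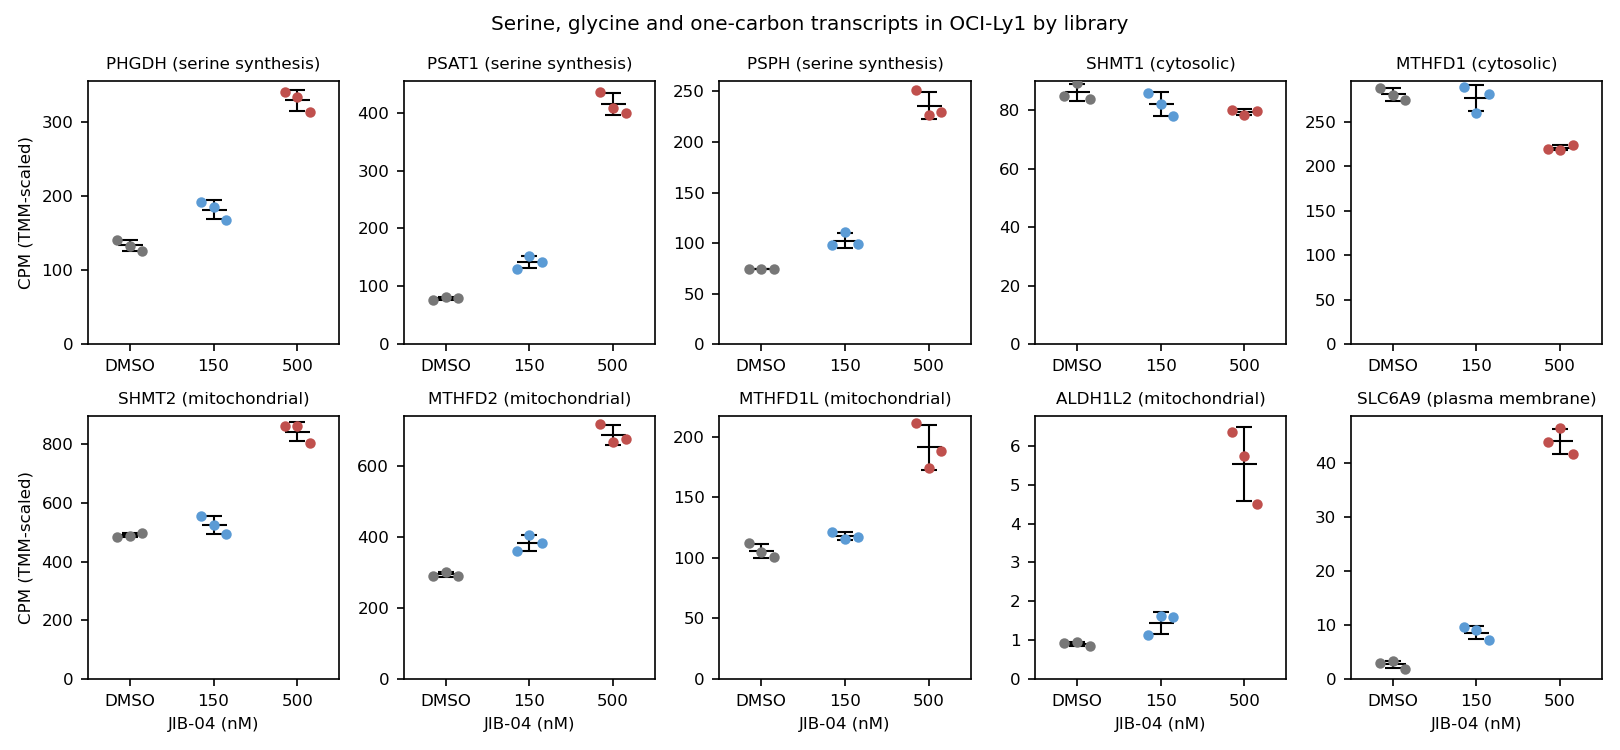
Level of each of the 10 transcripts in every library, in CPM after TMM scaling (y axis, from 0), by dose of JIB-04 (x axis). Points are libraries, and bars give the mean and SD of 3. The 500 nM points of 8 genes lie above all others, those of MTHFD1 lie below all others, and those of SHMT1 lie between 78.3 and 80.2 CPM.

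Upstream sequences are shown for 4 genes that differ in response: PSAT1 and MTHFD2, higher at both doses, and SHMT1 and MTHFD1, higher at neither. Each is the 250 bases before the RefSeq start site, 5′ to 3′ on the gene's strand, with GRCh38.p14 positions of PSAT1 chr9:78296875-78297124 (plus strand), MTHFD2 chr2:74198365-74198614 (plus strand), SHMT1 chr17:18363551-18363800 (minus strand) and MTHFD1 chr14:64388103-64388352 (plus strand). Capitals mark CCAAT on either strand (ATTGG on the strand shown) and the E-box CACGTG.
PSAT1: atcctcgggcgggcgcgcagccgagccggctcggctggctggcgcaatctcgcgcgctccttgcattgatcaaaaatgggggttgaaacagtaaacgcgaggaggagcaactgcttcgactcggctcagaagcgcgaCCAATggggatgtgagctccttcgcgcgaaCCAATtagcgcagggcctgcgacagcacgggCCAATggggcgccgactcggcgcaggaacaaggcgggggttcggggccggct
MTHFD2: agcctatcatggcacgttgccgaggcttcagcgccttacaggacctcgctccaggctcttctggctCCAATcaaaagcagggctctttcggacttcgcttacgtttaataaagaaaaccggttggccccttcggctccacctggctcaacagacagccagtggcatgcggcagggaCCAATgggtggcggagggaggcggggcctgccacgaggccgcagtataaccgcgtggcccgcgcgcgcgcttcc
SHMT1: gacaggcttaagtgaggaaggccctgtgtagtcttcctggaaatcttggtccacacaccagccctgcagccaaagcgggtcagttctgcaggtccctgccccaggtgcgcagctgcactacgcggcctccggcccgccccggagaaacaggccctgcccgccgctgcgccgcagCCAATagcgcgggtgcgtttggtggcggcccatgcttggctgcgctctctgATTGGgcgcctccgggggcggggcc
MTHFD1: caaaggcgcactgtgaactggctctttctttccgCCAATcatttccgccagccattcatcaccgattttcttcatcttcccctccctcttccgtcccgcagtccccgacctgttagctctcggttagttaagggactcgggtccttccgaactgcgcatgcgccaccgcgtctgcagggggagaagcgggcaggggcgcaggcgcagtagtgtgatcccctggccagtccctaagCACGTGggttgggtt

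RefSeq promoter windows of 300 bases, from 250 before the start site to 50 from it on, were given for 7 members (PHGDH, PSAT1, SHMT1, MTHFD1, MTHFD1L, MTHFD2 and SLC6A9). The core of the C/EBP-ATF composite element, TGATGNAA searched on both strands, was in 0 of the 7 and in 3.62% of 35116 RefSeq promoters of the same length. CCAAT was in 5 of the 7 and in 34.6% of all promoters. PSAT1 had 3 copies, 113, 83 and 52 bases before the start site, and MTHFD2 had 2, at 184 and 74 bases. SHMT1, which was not called, also had 2, at 76 and 25 bases, PHGDH had 1 at 71 bases, and MTHFD1, which fell, had 1 at 216 bases and another after the start site. CACGTG was in 1 of the 7, MTHFD1, 15 bases before the start site, and in 7.26% of all promoters. CCAAT and CACGTG, which do not overlap each other, were chosen after the sequences had been seen. These are matches of letters in 1 window per gene, and no element elsewhere was searched. MTHFD1L's window, which held none of the 3 motifs, has 40.7% GC, and whether its start site is the one used in these cells was not tested.

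PHGDH, the first enzyme of serine synthesis, was at 141, 133 and 126 CPM in DMSO libraries 1 to 3, at 192, 185 and 168 CPM in the 150 nM libraries and at 341, 333 and 313 CPM in the 500 nM libraries. The 3 groups did not overlap. PHGDH was higher by 1.30 ± 0.06 on the log2 scale at 500 nM than in DMSO (SE, adjusted p = 6.04e-17) and by 0.45 ± 0.06 at 150 nM (adjusted p = 1.07e-05).

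PSAT1, the aminotransferase of the second step, was at 76.9, 82.0 and 79.8 CPM in DMSO, at 130.6, 153 and 143 CPM at 150 nM and at 436, 408 and 399.7 CPM at 500 nM. Its lowest library at each dose stood well clear of the highest at the dose before. PSAT1 had a log2 fold change of 2.38 ± 0.06 at 500 nM against DMSO (adjusted p = 2.70e-22), 0.84 ± 0.06 at 150 nM against DMSO (adjusted p = 9.06e-11) and 1.55 ± 0.06 between the doses (adjusted p = 2.55e-18). Of the 3 enzymes in its pathway it changed most.

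PSPH, the phosphatase that releases serine, was almost the same in the DMSO libraries, at 74.3, 74.0 and 74.0 CPM, with 97.8, 110.5 and 99.3 CPM at 150 nM and 251, 227 and 229 CPM at 500 nM. The groups again did not overlap. For PSPH the log2 fold change was 1.67 ± 0.06 at 500 nM against DMSO (adjusted p = 3.83e-19) and 0.47 ± 0.06 at 150 nM (adjusted p = 8.14e-06). Between 500 and 150 nM it was 1.20 ± 0.06 for PSPH and 0.86 ± 0.06 for PHGDH (adjusted p = 8.20e-16 and 9.24e-13).

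SHMT2, which makes glycine from serine in mitochondria, was at 484, 487 and 498 CPM in DMSO, at 555, 526 and 495 CPM at 150 nM and at 862, 861 and 805 CPM at 500 nM. The third library at 150 nM lay within the range of the DMSO libraries, whereas all 3 at 500 nM lay above every other library. The log2 fold change was 0.78 ± 0.05 at 500 nM (adjusted p = 1.35e-13) and 0.10 ± 0.05 at 150 nM against DMSO, which did not pass (adjusted p = 0.473). Between the doses it was 0.68 ± 0.05 (adjusted p = 4.13e-12).

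SHMT1, the cytosolic counterpart, was at 85.1, 89.3 and 84.1 CPM in DMSO, at 86.1, 82.3 and 78.1 CPM at 150 nM and at 80.2, 78.3 and 79.9 CPM at 500 nM. The 500 nM libraries lay below the DMSO libraries, by little, and the 150 nM libraries overlapped both. The log2 fold change of -0.12 ± 0.06 at 500 nM did not pass (adjusted p = 0.108), nor did -0.07 ± 0.06 at 150 nM (adjusted p = 0.772). Its direction at 500 nM depended on the scaling between libraries, since library totals alone gave 0.02 (adjusted p = 0.753). With a trend on GC content removed, the decrease of 0.12 had an adjusted p of 0.0328.

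MTHFD2, the mitochondrial dehydrogenase and cyclohydrolase, was at 289.8, 302 and 291 CPM in DMSO, at 360.1, 405 and 383 CPM at 150 nM and at 717, 667 and 674 CPM at 500 nM. The groups did not overlap, and MTHFD2 was the only mitochondrial member called at both doses. It was higher by 1.22 ± 0.05 on the log2 scale at 500 nM (adjusted p = 1.34e-17) and by 0.38 ± 0.05 at 150 nM (adjusted p = 1.89e-05).

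MTHFD1L, the mitochondrial formate-releasing enzyme, was at 112, 104 and 101 CPM in DMSO, at 122, 116 and 117 CPM at 150 nM and at 211, 174 and 188 CPM at 500 nM. At 500 nM the log2 fold change was 0.85 ± 0.06 (adjusted p = 5.34e-12). All 150 nM libraries lay above the DMSO libraries, but the difference of 0.16 ± 0.06 did not pass (adjusted p = 0.332). After a GC trend was removed it was 0.19 and passed (adjusted p = 0.0424).

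ALDH1L2, the mitochondrial formyl-folate dehydrogenase, was scarce, at 0.927, 0.953 and 0.843 CPM in DMSO, at 1.12, 1.62 and 1.61 CPM at 150 nM and at 6.35, 5.75 and 4.50 CPM at 500 nM. These values stood for 40, 26 and 36 counts in the DMSO libraries, 48, 66 and 52 at 150 nM and 383, 259 and 241 at 500 nM. No groups overlapped. The log2 fold change of 2.61 ± 0.23 at 500 nM passed (adjusted p = 1.38e-10), and that of 0.67 ± 0.25 at 150 nM did not (adjusted p = 0.269).

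MTHFD1, the cytosolic enzyme that loads formate onto folate, was at 288, 279.7 and 274 CPM in DMSO, at 288, 259.6 and 281 CPM at 150 nM and at 219, 219 and 224 CPM at 500 nM. The DMSO and 150 nM libraries overlapped, and the 500 nM libraries lay below all of them. MTHFD1 fell by 0.35 on the log2 scale at 500 nM against DMSO (log2 fold change -0.35 ± 0.05, adjusted p = 1.75e-06) and stood at -0.02 ± 0.05 at 150 nM (adjusted p = 0.933). With library totals in place of TMM the change at 500 nM was smaller, at -0.21 (adjusted p = 0.00108).

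SLC6A9 had the largest change of the 10. It was at 2.97, 3.26 and 1.94 CPM in DMSO, at 9.59, 9.10 and 7.18 CPM at 150 nM and at 43.9, 46.4 and 41.7 CPM at 500 nM. Each dose stood far above the one before it. SLC6A9 had a log2 fold change of 4.04 ± 0.14 at 500 nM against DMSO (adjusted p = 2.29e-19), 1.69 ± 0.15 at 150 nM against DMSO (adjusted p = 8.10e-09) and 2.34 ± 0.12 between the doses (adjusted p = 2.66e-15). Its counts were 128, 89 and 83 in DMSO and 2647, 2092 and 2234 at 500 nM.

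**Figure D2:**
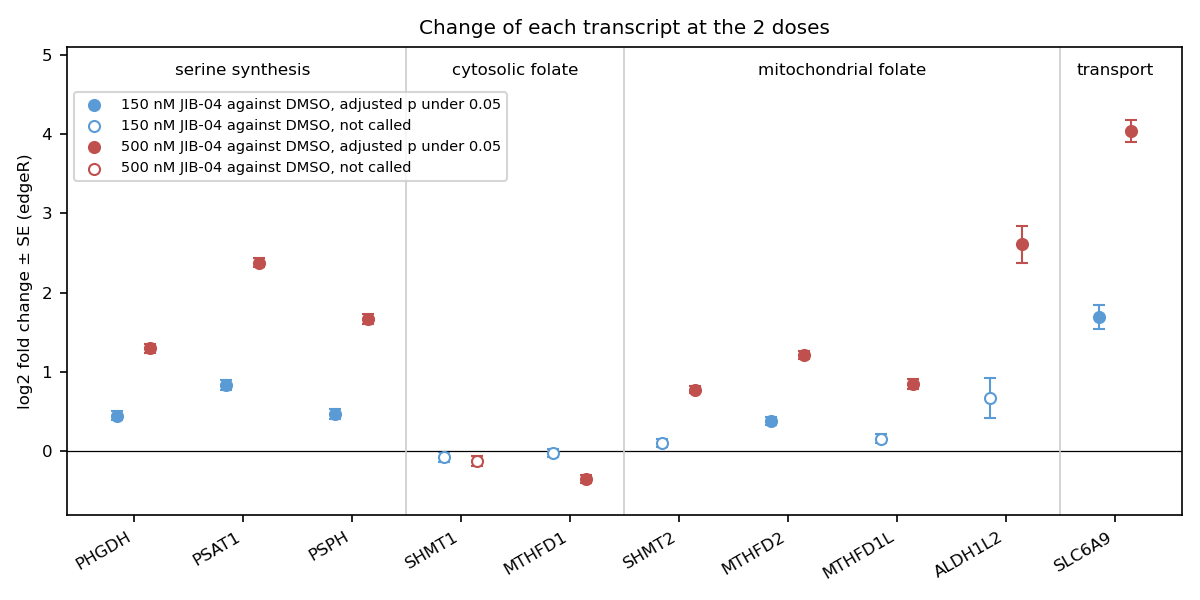
Log2 fold change of each transcript against DMSO (y axis, with SE) at 150 nM (blue) and 500 nM (red), grouped by role. Filled points passed an adjusted p of 0.05 in edgeR's quasi-likelihood test and open points did not. Serine synthesis, mitochondrial and transporter genes lie above 0 at 500 nM, from 0.78 for SHMT2 to 4.04 for SLC6A9, and the cytosolic folate genes lie at -0.12 and -0.35.

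Whether mitochondrial and cytosolic enzymes differed in response was tested on ratios of counts within a library, in which scaling between libraries cancels. Paired by the reaction they share, 3 ratios were formed: SHMT2 to SHMT1, MTHFD2 to MTHFD1 and MTHFD1L to MTHFD1. The last 2 share MTHFD1, an enzyme of 3 activities in the cytosol, and are not independent.

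SHMT2 had 5.69, 5.45 and 5.92 counts per SHMT1 count in DMSO, 6.44, 6.39 and 6.33 at 150 nM and 10.7, 11.0 and 10.1 at 500 nM. The balance of the serine hydroxymethyltransferases thus stood further to the mitochondrial gene in every 500 nM library. The mean ratio was 1.86-fold that of DMSO at 500 nM and 1.12-fold at 150 nM.

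MTHFD2 had 1.01, 1.08 and 1.06 counts per MTHFD1 count in DMSO. These are counts not adjusted for length, so only their change between groups is read. The ratio was 1.25, 1.56 and 1.36 at 150 nM and 3.27, 3.05 and 3.01 at 500 nM, 1.32-fold and 2.96-fold that of DMSO. MTHFD1L had fewer counts than MTHFD1 in all 9 libraries, with a ratio of 0.391, 0.373 and 0.368 in DMSO, 0.422, 0.446 and 0.417 at 150 nM and 0.963, 0.798 and 0.839 at 500 nM. That ratio was 1.14-fold that of DMSO at 150 nM and 2.29-fold at 500 nM.

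No pair of groups overlapped in any of the 3 ratios. Separate groups were common in these data: 30.2% of single genes tested lay wholly higher and 29.0% wholly lower at 500 nM than in DMSO. The share among ratios of other gene pairs was not computed. Since the genes were chosen with earlier results known, the p-values below are not those of ratios chosen blind. Over all 1680 assignments of the 9 libraries to 3 groups, each ratio gave an exact permutation p of 0.00357, the smallest this design allows, and 0.00357 after adjustment over the 3 ratios. Taken 2 groups at a time, 3 against 3 libraries, each exact two-sided permutation p was 0.10, again the smallest possible. The 500 nM against DMSO difference of log2 ratios was 0.90 for SHMT2 to SHMT1, 1.57 for MTHFD2 to MTHFD1 and 1.19 for MTHFD1L to MTHFD1.

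**Figure D3:**
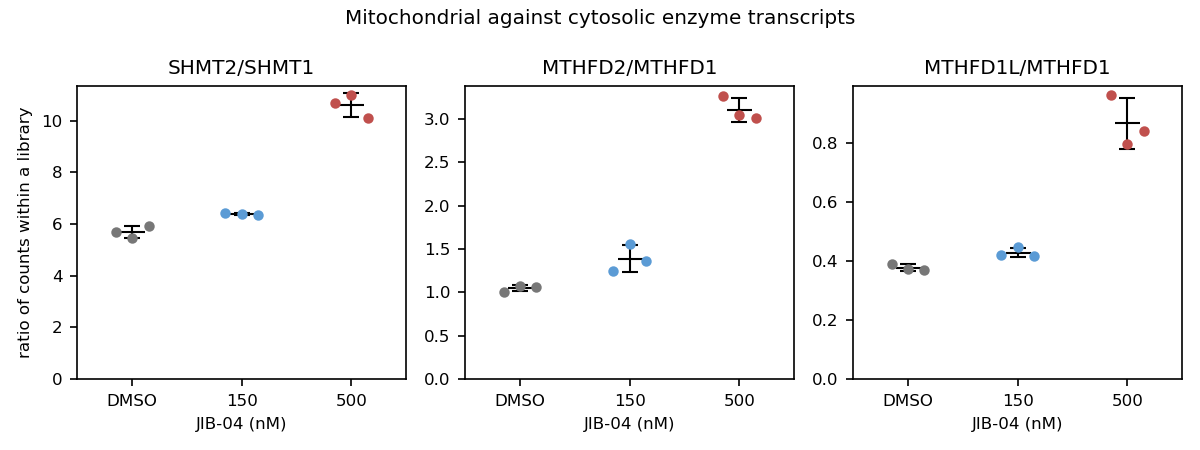
Counts of a mitochondrial enzyme's transcript per count of its cytosolic counterpart within each library (y axes, from 0), by dose of JIB-04. Points are libraries, and bars give the mean and SD of 3. All 3 ratios are highest at 500 nM, at means of 10.6, 3.11 and 0.866, and no groups overlap.

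The members did not change alike. Ordered by log2 fold change at 500 nM against DMSO, all 10 ran SLC6A9, ALDH1L2, PSAT1, PSPH, PHGDH, MTHFD2, MTHFD1L, SHMT2, SHMT1 and MTHFD1. Ratios between neighbours in this order were taken within each library and compared between 500 nM and DMSO libraries. For 3 pairs of neighbours the ratio overlapped between 500 nM and DMSO libraries: ALDH1L2 with PSAT1, PHGDH with MTHFD2 and MTHFD1L with SHMT2. For the other 6 pairs it did not, and the steps were 1.46 on the log2 scale from ALDH1L2 up to SLC6A9, 0.71 from PSPH up to PSAT1, 0.36 from PHGDH up to PSPH, 0.37 from MTHFD1L up to MTHFD2 and 0.23 from MTHFD1 up to SHMT1. The remaining step, from SHMT1 up to SHMT2, was 0.90, the largest after that below SLC6A9. The order was set by the same values, so neither the order nor these overlaps carry a test. Among single genes, 30.2% of those tested lay wholly higher and 29.0% wholly lower at 500 nM than in DMSO. These are shares of single-gene levels and not of ratios between genes, for which no share was computed.

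Levels can be compared between genes only per length, and their order depends on the transcript taken for each gene. Whether the longest transcript is the one present in these cells was not tested. For SHMT2 (3416 bases) and PHGDH (3180 bases) it was longer than the gene's merged exons in the basic annotation (3029 and 2662 bases). Computed as TPM, counts per transcript length scaled to a fixed total per library, from the counts and each gene's longest GENCODE transcript, SHMT2 was the most abundant member at every dose, with 333 ± 11 TPM in DMSO, 369 ± 17.8 at 150 nM and 663 ± 20.7 at 500 nM (SD, n = 3 each). In DMSO it stood above 97.3% of the 13823 tested genes with a transcript length, and MTHFD2 followed at 154 ± 3.08 TPM. PHGDH at 97.3 ± 4.30 TPM and MTHFD1 at 95.7 ± 1.63 TPM overlapped between libraries, as did SHMT1 at 72.7 ± 1.58 and MTHFD1L at 68.3 ± 3.22 TPM. PSAT1 and PSPH lay between these pairs in DMSO, at 84.6 ± 2.99 and 79.1 ± 1.41 TPM.

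At 500 nM the order of levels was different. PSAT1, below MTHFD1 in DMSO, was the most abundant member after SHMT2, at 509 ± 12.2 TPM, ahead of MTHFD2 at 414 ± 8.0 TPM, and no library of one overlapped the other. PSPH at 291 ± 10.1 TPM and PHGDH at 278 ± 8.43 TPM overlapped. MTHFD1 at 87.1 ± 2.67 TPM and SHMT1 at 77.5 ± 1.45 TPM were below MTHFD1L at 142 ± 11.2 TPM, which had been the lowest of the 3 in DMSO. SLC6A9 had 2.02 ± 0.481 TPM in DMSO, above 22.9% of tested genes with a length, and 37.8 ± 2.14 TPM at 500 nM. ALDH1L2 was the lowest member at each dose, with 0.279 ± 0.0127 TPM in DMSO and 1.97 ± 0.303 TPM at 500 nM.

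Summed per-length levels give 1 value per group of members and library. TPM carries no TMM scaling, so rises in these sums are not the changes tested. SHMT2 had 333 TPM in DMSO and 663 TPM at 500 nM, beside a 1.72-fold change in edgeR's test. SHMT2 also made up most of the mitochondrial sum, in which ALDH1L2 had 0.279 TPM in DMSO. The 4 mitochondrial transcripts came to 549 to 568 TPM in DMSO, 642 to 662 TPM at 150 nM and 1199.9 to 1239 TPM at 500 nM. The 3 serine synthesis transcripts came to 259.8 to 262 TPM in DMSO, 394 to 426 TPM at 150 nM and 1054 to 1105 TPM at 500 nM. SHMT1 and MTHFD1 together came to 168 to 169 TPM in DMSO, 162 to 176 TPM at 150 nM and 161 to 169 TPM at 500 nM, and these ranges overlapped. Within this sum the mean of MTHFD1 was 95.7 TPM in DMSO and 87.1 TPM at 500 nM, while that of SHMT1 was 72.7 and 77.5 TPM. On this scale SHMT1 was thus higher at 500 nM than in DMSO and on the CPM scale lower. TPM is scaled to a fixed total per library and CPM by TMM, with TMM factors of 0.958 to 0.971 in DMSO and 1.054 to 1.069 at 500 nM. With library totals in place of TMM, the log2 fold change of SHMT1 counts was 0.02 in place of -0.12. How much of the difference between the scales this step made was not tested.

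**Figure D4:**
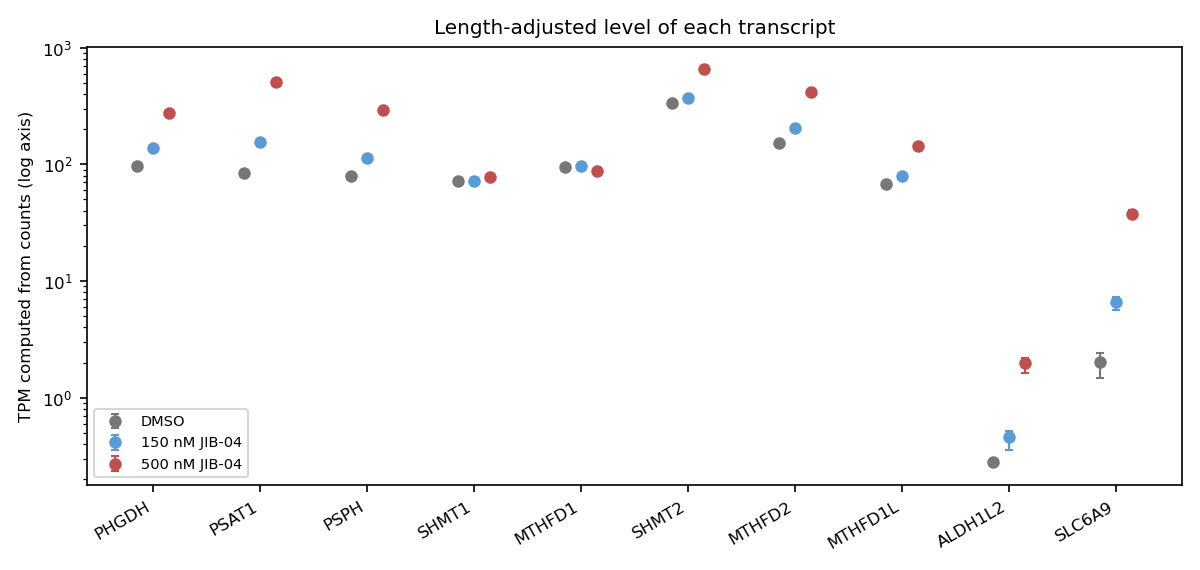
Length-adjusted level of each transcript, in TPM on a log axis, in DMSO (grey), 150 nM (blue) and 500 nM JIB-04 (red). Points are means of 3 libraries and bars span the lowest to the highest library. PSAT1 passes MTHFD2 between the lowest and the highest dose, while SHMT1 stays between 71.6 and 77.5 TPM in the mean.

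Around these 10 genes, 45 others of the pathway were listed, 39 of them tested; DMGDH, ALDH1L1, BHMT, SDS, SDSL and SLC6A14 had too few counts. At 500 nM against DMSO, 13 were higher, 11 were lower and 15 did not pass, with a median log2 fold change of 0.06. That is 61.5% called, beside 52.0% of all tested genes, with both directions about equally frequent. At 150 nM, 3 of the 39 were higher and 0 lower, which is 7.69% beside 1.27% of all tested genes in either direction.

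The methionine cycle and transsulfuration genes held the largest change of the list. CTH, which makes cysteine from cystathionine, was at 89.6 ± 5.85 CPM at 500 nM and 10.7 ± 0.336 CPM in DMSO, a log2 fold change of 3.07 ± 0.08 (adjusted p = 6.61e-22), and was higher by 0.97 ± 0.08 at 150 nM (adjusted p = 5.43e-09). CBS, which joins serine to homocysteine, was higher by 0.80 ± 0.05 at 500 nM. Its increase of 0.21 ± 0.05 at 150 nM (adjusted p = 0.0406) was not called in 10 of 19 alternative analyses, in which the adjusted p reached 0.173. MAT2A and AHCY, which make S-adenosylmethionine and clear its product, had log2 fold changes of -0.50 and -0.30 at 500 nM, both called. The other 4 of 8 tested did not pass. The group thus had 2 higher and 2 lower of 8 at 500 nM, beside 26.3% and 25.6% of all tested genes.

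Not every mitochondrial folate gene moved with SHMT2, MTHFD2 and MTHFD1L. Of 10 further mitochondrial folate and glycine cleavage genes tested, 3 were higher and 5 lower at 500 nM, beside 26.3% and 25.6% of all tested genes. SFXN1, the carrier of serine into mitochondria, was at 120.4 ± 4.31 CPM at 500 nM and 185 ± 2.47 CPM in DMSO, a log2 fold change of -0.62 ± 0.05 (adjusted p = 6.09e-11). GCSH, the lipoyl protein of glycine cleavage, had -0.55 ± 0.07 (adjusted p = 6.89e-08), MTFMT, which formylates the mitochondrial initiator tRNA, had -0.45, and SLC25A32, the mitochondrial folate carrier, had -0.33. DLD, at -0.14, was not called in 9 of 19 alternatives and stood at 0.00 with library totals. The 3 that were higher, GLDC, SFXN3 and SARDH, had means of 0.959, 2.37 and 0.526 CPM at 500 nM. SARDH, at 0.101 CPM in DMSO, passed the filter on low counts only through the 500 nM libraries, so its call is no support for a direction. GLDC lost its call without DMSO library 3 or 500 nM library 1 or 2 (adjusted p = 0.0735, 0.0858 and 0.0651), and SARDH without 500 nM library 1 (adjusted p = 0.0530).

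Of 11 further genes of folate, purine and thymidylate metabolism tested, 2 were higher and 3 lower at 500 nM. That is 45.5% called beside 52.0% of all tested genes. ATIC, which completes the purine ring with a formyl group, was at 41.0 ± 0.0693 CPM at 500 nM and 69.0 ± 2.01 CPM in DMSO, a log2 fold change of -0.75 ± 0.09 (adjusted p = 4.49e-08). GART, which uses formyl-folate earlier in purine synthesis, had -0.33, and FPGS, which adds glutamates to folate, had -0.31 and lost its call with library totals (adjusted p = 0.115). The 2 that were higher were MTHFS at 1.46 ± 0.29, with 2.36 CPM at 500 nM and 0.862 CPM in DMSO, and GGH, which removes those glutamates, at 0.30. TYMS, the thymidylate synthase, had 0.17 ± 0.13 and did not pass, but had 0.31 and passed with library totals (adjusted p = 0.0437).

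Among 10 tested genes of serine and glycine use and transport, 6 were higher and 1 lower at 500 nM, beside 26.3% and 25.6% of all tested genes. SLC1A5, a neutral amino acid transporter, was at 271 ± 15.9 CPM at 500 nM and 86.1 ± 8.22 CPM in DMSO, a log2 fold change of 1.65 ± 0.07 (adjusted p = 3.87e-18), and it was higher by 0.38 ± 0.07 at 150 nM (adjusted p = 6.11e-04). GAMT, which makes creatine, had 1.11 ± 0.15, and the transporters SLC1A4 and SLC38A2 had 0.69 and 0.51. SPTLC2, a subunit of the serine palmitoyltransferase that starts sphingolipid synthesis, was lower, at -0.30, while its partner SPTLC1 was higher, at 0.43.

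**Figure D5:**
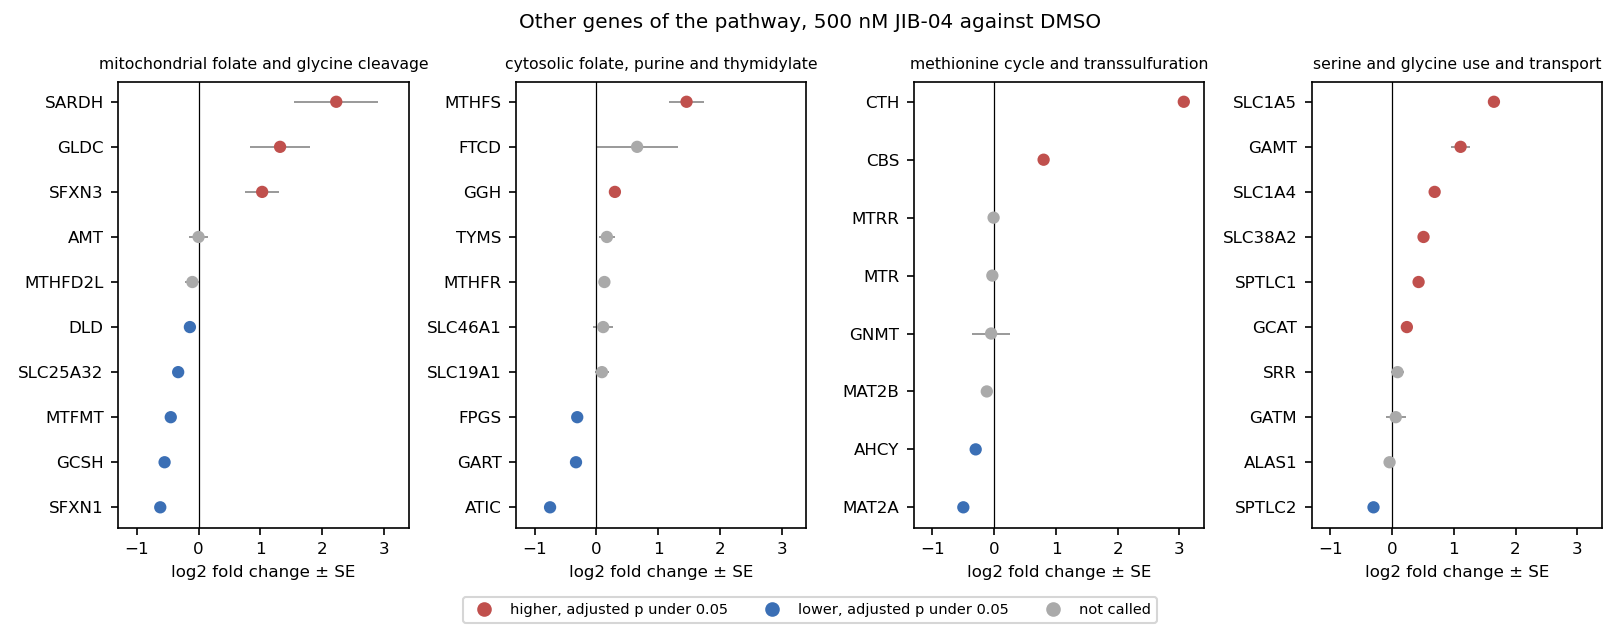
Log2 fold change with SE at 500 nM JIB-04 against DMSO for tested further genes of the pathway, in 4 groups. Red points were higher and blue points lower at an adjusted p under 0.05, and grey points did not pass. Both colours appear in each group, from -0.75 for ATIC to 3.07 for CTH.

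Reported regulators of these genes were listed with them. ATF4, the transcription factor of the amino acid response, was at 559, 554 and 539 CPM in DMSO, at 615, 602 and 618 CPM at 150 nM and at 842, 834 and 808 CPM at 500 nM. The 3 groups did not overlap. The log2 fold change was 0.59 ± 0.04 at 500 nM (adjusted p = 7.67e-12), and 0.15 ± 0.04 at 150 nM, which did not pass (adjusted p = 0.104). In 4 of 19 alternative analyses the increase at 150 nM passed, at 0.0174 with DESeq2, 0.0408 with library totals, 0.00133 with a GC trend removed and 0.0332 with a length trend removed (adjusted p). KDM4C, reported in other cancer cells to activate serine synthesis genes with ATF4, and KDM4A were higher by 0.23 ± 0.06 and 0.34 ± 0.06 at 500 nM. MYC and NFE2L2 were higher by 0.27 and 0.23. EHMT2, the H3K9 methyltransferase G9a, had -0.09 ± 0.07 (adjusted p = 0.287), and -0.20 with a GC trend removed (adjusted p = 5.42e-04). At 150 nM none of the regulators named here was called in the analysis reported, apart from the alternatives given for ATF4. Of all tested genes, only 1.27% were called at 150 nM in either direction, and 26.3% were called higher at 500 nM. The lack of calls among so few genes at 150 nM is therefore no result about the regulators. Their part in the members' changes was not tested.

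Some exons of the members lie under those of genes on the opposite strand, and the sources used here do not give the strand setting of the counting. In GENCODE annotation this held for 36.3% of the exon bases of MTHFD2 (SLC4A5 and an unnamed locus), 15.1% of SHMT2 (NDUFA4L2 and an unnamed locus), 7.67% of SLC6A9 (CCDC24), 6.95% of SHMT1 (SMCR8) and 6.66% of MTHFD1 (ZBTB25 and 2 unnamed loci), and for none of the other 5. SLC4A5 had 7.78 to 9.38% as many counts as MTHFD2 in the 9 libraries, and was higher by 1.17 ± 0.09 at 500 nM. NDUFA4L2 had 0.934 to 1.25% as many as SHMT2 and was higher by 0.85 ± 0.14. CCDC24 was higher by 1.01 ± 0.26 at 500 nM, with 5.46 to 6.45% as many counts as SLC6A9 there and 28.1 to 61.4% in DMSO. SMCR8 had 77.3 to 95.2% as many counts as SHMT1 and ZBTB25 had 6.70 to 9.97% as many as MTHFD1, both members being denominators of the ratios above. SMCR8 had a log2 fold change of 0.04 ± 0.06 and ZBTB25 of 0.06 ± 0.09 at 500 nM, and neither was called. The pseudogene MTHFD2P1 had at most 1 count in any library. The part of shared reads in the members' values was not tested.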

How the data were processed

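The authors deposited raw counts of reads per gene symbol for 9 RNA-seq libraries, 1 column each. Per the submitters' processing notes, Subread, featureCounts 1.4.6, Bowtie2 2.2.6 and TopHat2 2.0.14 were used, with builds mm10 and hg19. The sources used here do not give the annotation version or strand setting. Sample titles gave the group and number of each library.

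Counts were analysed with edgeR 4.0.16 in R 4.3.3: filterByExpr (minimum count 10, minimum total 15), TMM scaling, and a robust quasi-likelihood fit to all 9 libraries with 3 contrasts. Benjamini-Hochberg adjustment ran over 15089 genes, and genes were called under 0.05. All adjusted p-values are from this test unless another is named. Standard errors are the unshrunk change over the square root of F. Log2 ratios within a library had 0.5 added to each count and were tested by exact permutation. TPM were computed here from the deposited counts and GENCODE v29 transcript lengths. The scripts were tested on simulated data. Alternatives were DESeq2 1.42.0, limma-voom (limma 3.58.1), other scalings and filters, fewer libraries, a replicate block, and GC or length offsets (lowess span 0.3), the last chosen after seeing the data.

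The members and lists were chosen with earlier results of these data known. All members are named, with the listed regulators, the 3 largest called changes per direction in each comparison among the other pathway genes of at least 5 CPM, and any count of 5 or fewer. Outside this rule, TYMS, SLC1A4, SLC38A2 and SPTLC1 were named after their values were seen. Some listed genes are not reported here. Pairs of libraries of a condition differed by more than sampling noise, so all were kept.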

Additional observations from a re-analysis of the deposited data

How the results depend on the processing

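Members called numbered 9 for 500 nM against DMSO, 5 for 150 nM against DMSO and 9 for 500 against 150 nM. This held in all 19 alternatives, except that removing the GC trend gave 10 and 6 in the first 2 comparisons. The 3 ratios kept their direction and their exact permutation p under 0.05. As counts within a library, they could not change with the scaling between libraries or the filter. Leaving out 1 library put the log2 ratio difference at 500 nM against DMSO at 0.87 to 0.94 for SHMT2 to SHMT1, 1.53 to 1.59 for MTHFD2 to MTHFD1 and 1.12 to 1.25 for MTHFD1L to MTHFD1. Among single members only SHMT1 at 500 nM (-0.12, adjusted p = 0.0328) and MTHFD1L at 150 nM (0.19, adjusted p = 0.0424) changed side of the threshold, both when a trend on GC content was removed; the cause was not tested. The count of other pathway genes called at 150 nM, 3 in the report, was 5 with DESeq2, 5 with no filter and 5 with the GC trend removed, and 2 to 4 without 1 library. The background at 150 nM was less stable. Of all tested genes, 192 were called, against 291 with DESeq2, 320 with no filter (20346 genes tested), 101 with only the 6 libraries compared, 308 with a replicate block and 351 with the GC trend removed. Without 1 library it ran from 98 (150 nM library 2) to 545 (150 nM library 1), and was 107 without DMSO library 2. Scaling by library totals put the median log2 fold change of all genes at 0.15 for 500 nM against DMSO and 0.13 for 500 against 150 nM, in place of 0.01 in each, and turned a split of 3975 higher and 3868 lower into 5716 and 2514, and one of 3577 and 3444 into 5257 and 2137. Same-numbered libraries did not deviate together (r = -0.05 to 0.10), and 0 of 9 libraries correlated best with its own number in both other groups. The replicate block changed no member's call, and in it each ratio had an exact permutation p of 0.0278 over 216 arrangements. Depth limits ALDH1L2 most, with 40, 26 and 36 counts in DMSO.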

Other observations

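For each member, the gene outside the lists with the most similar profile was found among 10141 genes of at least 5 CPM, as the smallest root-mean-square difference of mean-centred log2 CPM over the 9 libraries. This is a description, set by the differences between conditions that all 9 libraries share, and carries no test. Among the serine synthesis enzymes, PHGDH was nearest to GPT2, a mitochondrial alanine aminotransferase, with a difference of 0.07 beside a spread of 0.55 for PHGDH itself. PSPH was nearest to CREBRF (0.06 beside 0.70) and PSAT1 to the lipoprotein receptor gene VLDLR (0.12 beside 0.99). Of the mitochondrial members, SHMT2 was nearest to the centrosomal gene PCNT (0.04 beside 0.35), MTHFD2 to RNF144B (0.05 beside 0.51), MTHFD1L to LINC01128 (0.06 beside 0.38) and ALDH1L2 to JMY (0.20 beside 1.09). SLC6A9 was nearest to MOCOS (0.22 beside 1.66). The cytosolic folate members varied little, and their nearest genes were GRB2 for SHMT1 (0.03 beside 0.06) and the nuclear pore gene NUP160 for MTHFD1 (0.03 beside 0.16). No member was the nearest gene of another by construction, since the lists were left out.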
